A study of Sus scrofa with 24 samples.

Results

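Outer zone cells of the meniscus that were stretched for 4 h without interleukin-1 (IL-1) were compared with outer zone cells that were kept unstretched. The 6 libraries were taken by their labels, 3 with the 5% load and 3 unloaded, all without cytokine, and they are 6 of the 24 libraries in the series. Genes were kept where any of the 24 libraries had at least 10 reads, which left 13653 of 25880 annotated genes. Both groups came from the same culture. The cells were isolated from medial menisci of skeletally mature female pigs, pooled from at least 3 menisci, expanded for 1 passage in serum and seeded at 250000 cells per well on flexible membranes coated with type I collagen. About 40 h later the stretched group received a single bout of equibiaxial stretch, 5% at 0.5 Hz, and the unstretched group stood beside it in the same incubator. RNA was taken at the end of the bout and sequenced as mRNA. The other libraries hold inner zone cells and cells given 0.1 ng/mL IL-1α, an inflammatory cytokine of injured joints. Replicates are wells of pooled cells, so the p-values measure the spread between wells and not between pigs. All libraries of a treatment also share 1 number in their labels, 61 for stretch and 63 for no stretch, so whatever that number stands for cannot be told apart from the treatment.

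The meniscus is the fibrocartilage pad between femur and tibia. Its outer zone is vascular and carries tension along thick bundles of type I collagen, and its cells resemble fibroblasts more than chondrocytes. Cells that adhere to a membrane sense its stretch through integrins, the actin cytoskeleton and calcium channels. Calcium activates the phosphatase calcineurin, which sends NFAT factors to the nucleus, while kinase cascades act within minutes on the immediate-early genes, whose transcripts are short-lived. After 4 h the early transcripts have often passed their peak, and the genes that respond later (secreted ligands, feedback inhibitors, transcription factors) are in view.

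The 6 libraries held 27633199 to 35284474 counted reads, and their 10 most abundant genes took 16.4% to 17.4% of them. The first principal component, 48.7% of the variance of the 500 most variable genes, separated stretched from unstretched libraries. Stretched library 5 differed most from its fellows, with a chi-square per gene of 8.199 and 8.331 against the other stretched libraries, where all other replicate pairs had 2.74 to 5.00. Levels are given in CPM, read counts scaled to a common library size, with the libraries labelled 4, 5 and 6 in that order. Fibroblast transcripts were abundant in the cells, and some cartilage transcripts were present too. COL1A1, the main collagen of the outer meniscus, had 51719.5, 58743 and 51844 CPM in stretched cells, against 53708, 56246 and 57350.2 CPM in unstretched cells. COL2A1 of hyaline cartilage had 6.17, 6.38 and 5.32 CPM against 6.39, 5.01 and 5.28 CPM. ACAN, aggrecan of cartilage, had 235, 310 and 257 CPM against 263, 317 and 290 CPM. The 12 tested chondrocyte-like markers summed to 965 to 1108 CPM with stretch and 1148 to 1240 CPM without. Markers of endothelial cells, leukocytes and adipocytes were low or absent. Of 15 endothelial markers 8 were tested, with a summed level of 54.8 to 55.3 CPM with stretch and 50.7 to 53.5 CPM without, and CDH5, VWF, TEK and KDR were under the count minimum. Of 18 leukocyte markers 8 were tested, summing to 26.5 to 31.7 CPM with stretch and 24.5 to 26.3 CPM without, and PTPRC, CD3E and ITGAM were under the minimum. The 13 tested markers of mural and smooth muscle cells, which fibroblasts share, summed to 1920 to 1982 CPM with stretch and 1893 to 1912 CPM without. The 3 adipocyte markers tested summed to 2.09 to 2.86 CPM with stretch and 2.07 to 2.12 CPM without. Fewer cells of a type and less RNA per cell cannot be told apart in such bulk libraries.

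Stretch alone changed the expression of 185 genes more than 2-fold at an adjusted p under 0.05 (1.36% of the genes tested). Of these, 118 were upregulated (0.864%) and 67 were downregulated (0.491%). At any fold change 1503 genes rose (11.0%) and 1401 fell (10.3%), with a median log2 fold change of 0.01 over all tested genes. Most of these changes were small. Of the genes that rose 658 did so by 0.25 or less on the log2 scale and 13 by more than 2, and of those that fell 544 moved by 0.25 or less and 10 by more than 2. In 180 of the 185 the 3 stretched libraries lay entirely on one side of the 3 unstretched ones, a separation that 4883 tested genes (35.8%) had. Without stretched library 5 the counts were 106 upregulated and 78 downregulated. The shares of 11.0% and 10.3% are the background for the counts of gene lists below, and several lists lie near them.

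The upregulated genes were of low abundance. Their median level in the stretched cells was 1.33 CPM, and 56 of the 118 (47.5%) stayed under 1 CPM in both groups. The downregulated genes had a median of 12.3 CPM in the unstretched cells, and 16 of 67 (23.9%) were under 1 CPM. Over all tested genes the median was 19.6 CPM and 15.7% were under 1 CPM. A fold change of a gene at such levels rests on few reads. EDN2, which encodes endothelin-2, had 6, 15 and 18 reads with stretch, against 0, 3 and 0 reads without. BARX2, a homeobox factor of limb and cartilage, was called on 3, 1 and 3 reads with stretch and 0 reads in each unstretched library, and lost the call when any of 5 libraries was left out. The genes named below mostly exceed 1 CPM in 1 of the groups.

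**Figure D1:**
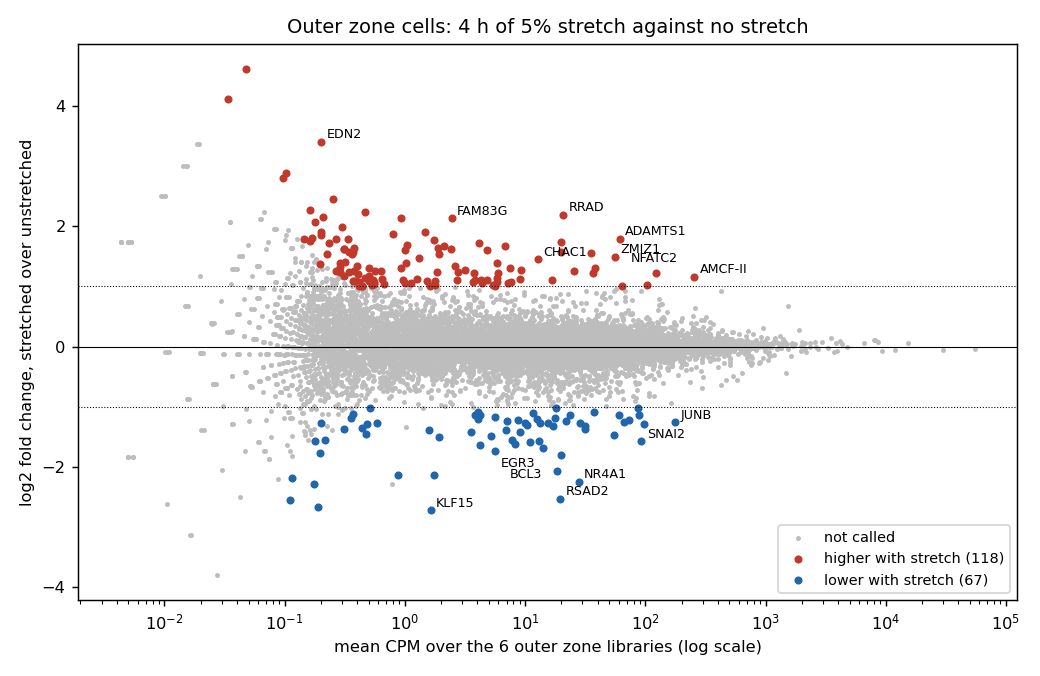
Each point is 1 of the 13653 tested genes, with its mean CPM over the 6 outer zone libraries on a log axis and its log2 fold change, stretched over unstretched. Red points are the 118 genes called higher with stretch, blue points the 67 called lower, and the dotted lines mark a 2-fold change. The red points lie mostly at low CPM, and more of the blue points lie at middle levels.

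The genes higher with stretch included RRAD, which encodes an RGK GTPase, a family that binds the beta subunit of voltage-gated calcium channels and reduces their current. It had 32.3, 36.7 and 32.8 CPM in stretched cells, against 6.86, 7.58 and 7.77 CPM in unstretched cells, with no overlap. Its level was 4.57-fold higher (log2 fold change 2.19 ± 0.14 (SE), adjusted p = 1.15e-09). GEM, another RGK GTPase, had 33.8, 32.96 and 27.2 CPM against 18.3, 19.4 and 18.2 CPM, a smaller rise (0.75). KCNK9, a background potassium channel, had 3.67, 3.97 and 3.29 CPM against 0.903, 1.53 and 1.11 CPM, so that every stretched well was above every unstretched one (1.62). KCNN4, a potassium channel opened by calcium, rose by a log2 fold change of 1.09 and KCNJ2, an inward rectifier, by 0.39. KCNK2, a potassium channel gated by membrane tension, fell by 0.59 on the log2 scale, with 2.13 CPM against 3.18 CPM. Of 13 RGK GTPases and potassium channels tested, 7 rose and 1 fell, and their median of 0.39 was above the 0.01 of all tested genes. Without stretched library 5 that median was 0.29, and 0.16 where at least 1 CPM was asked of 3 libraries.

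NFATC2 encodes an NFAT factor that calcineurin activates. It had 167, 181 and 163 CPM in stretched cells, against 75.2, 70.04 and 73.5 CPM in unstretched cells, a 2.33-fold rise with wells that differed little (log2 fold change 1.22 ± 0.06 (SE), adjusted p = 6.12e-17). NFATC1, whose own promoter NFAT factors use, had 149, 187 and 169 CPM against 94.2, 105 and 110.2 CPM and rose by a log2 fold change of 0.70. NFATC4 rose less (0.26), and NFATC3 and NFAT5 did not pass the test (-0.12 and 0.04). The genes for calcium entry and release moved little. PIEZO1, the main mechanically gated cation channel, had a log2 fold change of 0.19 (adjusted p = 0.000666). TRPV4, an osmotic and mechanical calcium channel, had -0.17 and did not pass (adjusted p = 0.285). RCAN1, a calcineurin inhibitor that NFAT induces in other cells, did not pass either (0.13, adjusted p = 0.331). Of 30 genes for calcium entry and calcineurin-NFAT signalling, 7 rose and 2 fell (TRPM7 and ITPR2, with 1 lower without stretched library 4 or unstretched library 4 or 5), and NFATC2 alone passed 2-fold.

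Of 17 tested regulators of Rac and related GTPases, which shape actin, 7 rose, 3 fell and 7 did not pass, with a median of 0.12, where 11.0% of all tested genes rose. TIAM1, an exchange factor that activates Rac1, had 3.73, 3.13 and 2.897 CPM in stretched cells, against 1.104, 0.879 and 1.05 CPM in unstretched cells (log2 fold change 1.67 ± 0.17 (SE), adjusted p = 3.82e-09). BAIAP2, a scaffold between Rac and actin, had 41.9 CPM with stretch and 22.1 CPM without (0.92). RAP1GAP2, SIPA1L2 and SH3BP1, which switch off Rap or Rac, rose by 1.24, 1.11 and 1.08 on the log2 scale. TIAM2, a relative of TIAM1, fell by 0.44, and ARHGEF2, an exchange factor bound to microtubules, fell by 0.30. Genes of the actin cytoskeleton moved in both directions, mostly by less than 2-fold. Among 39 genes of the actin cytoskeleton and its factor SRF, 8 rose and 10 fell, with a median of -0.0002. Over all tested genes 11.0% rose and 10.3% fell. Only KLHL41 and MYBPC3 of this list, better known from muscle, passed 2-fold. ACTA2, the smooth muscle actin of contractile fibroblasts, had 1008, 903 and 959 CPM against 971, 941 and 959 CPM and overlapped.

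Several other genes were named for a small p or a large change among those whose groups did not overlap. ZMIZ1, a transcriptional co-regulator, had 80.3, 86.2 and 81.6 CPM in stretched cells, against 30.9, 29.2 and 27.95 CPM in unstretched cells, 2.82-fold higher (adjusted p = 5.97e-14). LRRC8C, a subunit of the volume-regulated anion channel, had 53.997, 54.6 and 54.3 CPM against 23.2, 21.3 and 21.1 CPM. FAM83G, a protein that anchors casein kinase 1, had 3.86, 4.51 and 3.58 CPM against 0.669, 1.04 and 0.9898 CPM (log2 fold change 2.13). CD83, a surface protein of activated immune cells, was at low levels with 5.599, 6.86 and 6.45 CPM against 2.07, 1.76 and 1.92 CPM (1.72). GPRC5A, an orphan receptor induced by retinoic acid, had 33.5, 31.2 and 27.1 CPM against 9.23, 8.75 and 9.27 CPM (1.75). FLRT3, an adhesion protein that modulates FGF signalling, had 52.04, 54.1 and 48.6 CPM against 24.02, 21.5 and 20.9 CPM (1.22).

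**Figure D2:**
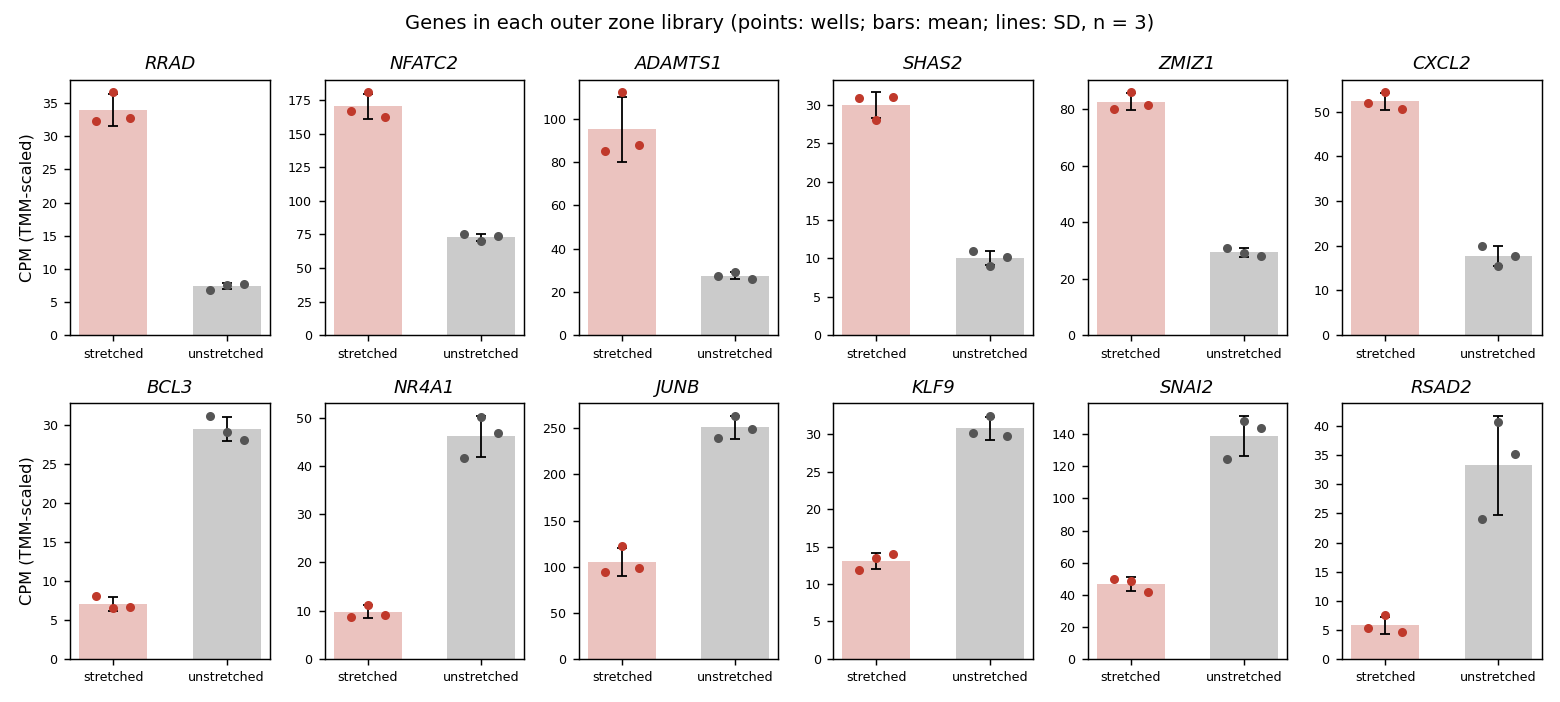
CPM of 12 genes in each outer zone library, stretched at the left and unstretched at the right of each panel; points are wells, bars are means and lines are SDs (n = 3), and every axis starts at 0. RRAD, NFATC2, ADAMTS1, SHAS2, ZMIZ1 and CXCL2 are higher in each stretched well, and BCL3, NR4A1, JUNB, KLF9, SNAI2 and RSAD2 are lower, with no overlap in any panel.

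Secreted ligands formed the next group. CXC chemokines draw neutrophils, and the pig genes lie together on chromosome 8 beside the genes of epiregulin and amphiregulin, which are ligands of the EGF receptor. AMCF-II, a pig chemokine of the CXCL5 and CXCL6 kind, was the most abundant and had 406, 333 and 321 CPM in stretched cells, against 172, 144 and 157 CPM in unstretched cells (log2 fold change 1.17 ± 0.10 (SE), adjusted p = 1.55e-07). CXCL2 had 52.004, 54.4 and 50.6 CPM against 20.002, 15.5 and 17.8 CPM, 2.94-fold higher (1.56). CXCL8, the pig interleukin-8, had 12.1, 9.81 and 9.37 CPM against 4.31, 2.25 and 3.27 CPM (1.67). Each stretched well was above each unstretched well in all 3. AREG, amphiregulin, had 46.7, 26.5 and 35.5 CPM against 16.2, 13.8 and 15.2 CPM (1.26), with stretched library 5 the lowest of the stretched wells. EREG, epiregulin, had 21.2, 14.3 and 17.8 CPM against 10.8, 9.67 and 9.36 CPM (0.84). In the 495 kb from CXCL8 to AREG 7 genes were tested and these 5 rose, while PPBP and MTHFD2L, at 1.76 and 0.374 CPM with stretch, did not pass (0.60 and 0.89). The chemokines are close copies of one another. Reads that map to several of them were not counted, so their levels may be underestimated.

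**Figure D3:**
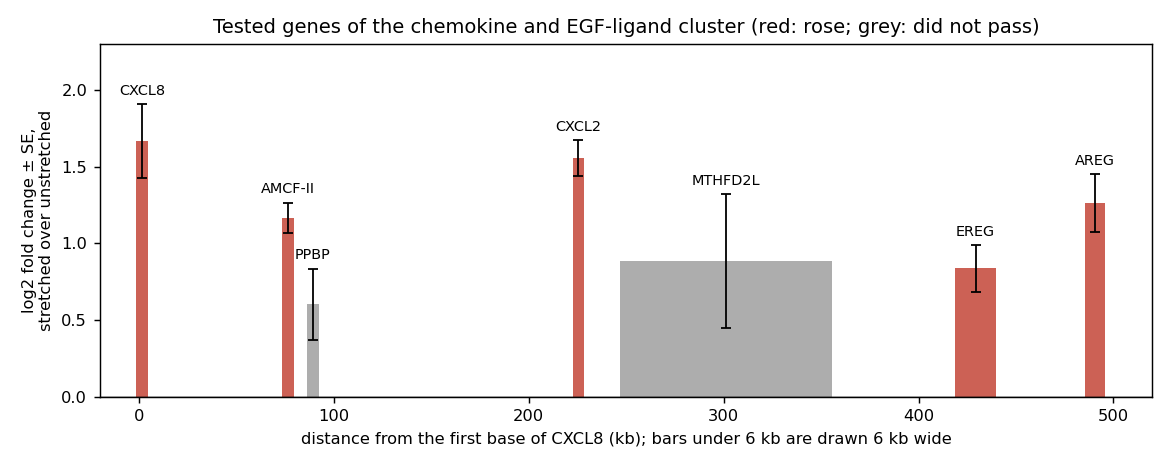
Log2 fold change ± SE, stretched over unstretched, of the 7 tested genes between CXCL8 and AREG, against distance in kb from the first base of CXCL8. CXCL8, AMCF-II, CXCL2, EREG and AREG rose (red), and PPBP and MTHFD2L did not pass the test (grey).

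The rise was narrow within the cytokines. Of 23 NF-κB dependent cytokines and chemokines, 3 rose (the 3 chemokines above) and 4 fell, beside 11.0% and 10.3% of all tested genes. CSF1, the macrophage growth factor, fell to 185, 195 and 177 CPM in stretched cells, against 257, 288 and 297 CPM in unstretched cells (-0.60). IL34, which shares its receptor, fell as well (-0.63), and so did LIF (-0.49) and CCL2 (-0.37). IL6 had 16.5 CPM with stretch and 15.4 CPM without, and did not pass (0.10, adjusted p = 0.765). Of the regulators of NF-κB, 7 of 27 rose and 6 fell (4 rose without stretched library 5). BCL3, an IκB protein that works in the nucleus, had the smallest p of any gene that fell, with 8.07, 6.501 and 6.604 CPM in stretched cells, against 31.2, 29.1 and 28.1 CPM in unstretched cells (log2 fold change -2.06 ± 0.09 (SE), adjusted p = 7.69e-18). MAP3K8 and MAP3K14, kinases that feed the pathway, fell by 1.39 and 0.73 on the log2 scale, and ZC3H12A, a ribonuclease that cuts cytokine transcripts, fell by 0.89. NFKBIA and TNFAIP3, inhibitors that NF-κB itself induces, rose by 0.18 and 0.34.

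Promoters of CXCL2, AMCF-II and AREG of this cluster, and of GPRC5A and LGR5, are shown. They were chosen because they hold matches to 2 motifs that stretch-activated pathways are known to use in other cells. CXCL8 and EREG of the cluster are not shown. LGR5 fell with stretch (-1.11), and the others shown rose. The windows run from 250 bases before to 50 after each start in the RefSeq annotation of Sscrofa11.1, and both strands were searched. The capitals mark the match. CXCL2 (chr8:70157121-70157171, plus strand) and AMCF-II (chr8:70008084-70008134, plus strand) hold the same run of letters, in which the NF-κB motif (GGGA, then 4 bases of any kind, then CC) is found on both strands with overlap.
CXCL2: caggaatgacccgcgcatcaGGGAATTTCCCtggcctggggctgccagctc
AMCF-II: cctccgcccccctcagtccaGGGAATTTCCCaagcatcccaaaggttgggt
AREG (chr8:70417836-70417883, plus strand), GPRC5A (chr5:59586770-59586817, minus strand) and LGR5 (chr5:35463193-35463240, plus strand) hold a cyclic AMP response element, TGACGTCA.
AREG: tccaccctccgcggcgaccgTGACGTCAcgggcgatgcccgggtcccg
GPRC5A: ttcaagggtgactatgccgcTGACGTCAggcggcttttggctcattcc
LGR5: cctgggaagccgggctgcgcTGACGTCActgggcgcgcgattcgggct
The NF-κB letters were found in 41 of 105 promoters of upregulated genes (39.0%), 12 of 57 of downregulated genes (21.1%) and 3764 of all 11685 (32.2%). The cyclic AMP element was found in 4 (3.81%), 1 (1.75%) and 345 (2.95%). A match says only that the letters are present.

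Receptors and ligands of other families were upregulated too. FLT1, a receptor that binds VEGF, had 3.04, 2.68 and 2.401 CPM against 1.003, 0.683 and 0.6898 CPM (1.77), and its ligand VEGFA fell by 0.35 on the log2 scale to 141, 143 and 124 CPM, against 171, 179.7 and 170.0 CPM without stretch. The fall of VEGFA was lost when any of 4 libraries was left out. FGF1 had 3.19, 4.51 and 3.37 CPM against 1.51, 1.92 and 1.71 CPM (1.10), PDGFA rose by 0.61 and VEGFC by 0.54. Of 26 factors and receptors of the FGF, VEGF, PDGF and HGF families, 10 rose and 3 fell (1 fell when stretched library 4 or 6 or unstretched library 5 was left out), with a median of 0.12. PTHLH, the parathyroid hormone-related peptide that keeps growth cartilage immature, had 8.76, 8.34 and 7.23 CPM against 3.48, 4.07 and 3.42 CPM (log2 fold change 1.14 ± 0.10 (SE), adjusted p = 1.74e-10). EGFR, the receptor of amphiregulin and epiregulin, rose by 0.32.

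Wnt receptors and their modulators split by gene. Wnt ligands act through Frizzled receptors and TCF and LEF factors. LEF1 had 1.87, 2.62 and 2.48 CPM against 0.468, 0.683 and 0.6898 CPM (log2 fold change 1.91 ± 0.24 (SE), adjusted p = 2.48e-07). NDP encodes norrin, a ligand of Frizzled-4 that is not itself a Wnt, and had 6.801, 8.73 and 6.34 CPM against 2.51, 2.44 and 2.22 CPM (1.61). FZD5 had 10.8, 16.7 and 11.9 CPM against 5.55, 5.24 and 5.55 CPM (1.27), with stretched library 5 the highest. TCF7 rose by 0.46 at 166 CPM. LGR5, a receptor that strengthens Wnt signals, fell to 6.99, 7.04 and 8.07 CPM in stretched cells, against 14.6, 17.02 and 16.2 CPM in unstretched cells (-1.11). AXIN2, a feedback inhibitor and common readout of Wnt signalling, fell by 0.57, and TCF7L2 by 0.56. Of 43 genes 9 rose and 5 fell, beside 11.0% and 10.3% of all tested genes, and the median was 0.03.

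Among matrix genes some rose and some fell. Hyaluronan is the long polysaccharide that coats cells and lubricates the joint. SHAS2 is the symbol in the counts for the pig hyaluronan synthase 2 gene, and it had 30.8, 27.96 and 31.03 CPM in stretched cells, against 10.9, 9.05 and 10.1 CPM in unstretched cells (log2 fold change 1.58 ± 0.20 (SE), adjusted p = 1.31e-05). HAS3 had 14.4, 21.7 and 13.02 CPM against 8.46, 12.4 and 11.9 CPM (0.57) and lost its call without stretched library 5 or unstretched library 4. CHST15, which adds sulfate to chondroitin chains, had 80.9, 91.3 and 85.3 CPM against 42.04, 39.3 and 46.1 CPM (1.01). CHST11, another sulfotransferase of that chain, had 86.04, 97.8 and 83.2 CPM against 47.2, 45.6 and 48.3 CPM (0.92). In both the groups were well apart. CHSY1, which builds the chain, rose by 0.32, while CHSY3 and CHST3 fell by 0.28 and 0.27. Of 32 genes for hyaluronan and glycosaminoglycan synthesis, 10 rose and 6 fell (6 rose without stretched library 5), with a median of 0.02.

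Among proteases ADAMTS1, which cleaves aggrecan and versican, had 84.996, 112 and 87.96 CPM in stretched cells, against 27.2, 29.4 and 26.004 CPM in unstretched cells (log2 fold change 1.79 ± 0.10 (SE), adjusted p = 2.65e-10). MMP25, a metalloproteinase anchored to the membrane, had 11.2, 13.3 and 12.9 CPM against 6.29, 5.34 and 5.61 CPM (1.12). ADAMTS5, the main aggrecanase of mouse cartilage, rose by 0.52 with 46.5 CPM against 32.5 CPM, whereas ADAMTS4, the other aggrecanase, fell by 0.41. ADAMTS9, MMP16 and ADAMTSL1, a relative with no protease domain, fell by 0.60, 0.53 and 0.55. MMP3 and MMP13 did not pass (-0.16 and -0.36). Of 39 enzymes 4 rose and 5 fell, near the 11.0% and 10.3% of all tested genes. The inhibitors TIMP1 and TIMP3 rose by 0.31 and 0.43. The structural matrix was nearly level, with 1 of 42 genes higher (COL15A1) and 3 lower (COL11A1, HAPLN1 and FBN2), none by more than 0.30 on the log2 scale. Those counts moved with single libraries, to 7 lower without stretched library 5 and 4 or 3 higher without stretched or unstretched library 6. ACAN, aggrecan, had 235, 310.5 and 257 CPM against 263, 317 and 290.3 CPM and did not pass (adjusted p = 0.502).

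Some ligands of the TGF-β family rose, while many of its usual target genes fell. TGFB1 had 63.3, 58.6 and 54.1 CPM in stretched cells, against 29.4, 32.1 and 32.8 CPM in unstretched cells (log2 fold change 0.90 ± 0.08 (SE), adjusted p = 4.00e-10). INHBA, the subunit of activin A, had 56.8, 64.7 and 53.04 CPM against 35.8, 33.7 and 31.3 CPM (0.79). INHBB, the subunit of activin B, rose by 0.76. BMP2 had 1.83, 2.77 and 1.54 CPM against 1.14, 1.302 and 1.1997 CPM (0.74) and lost its call without stretched library 5. Of 20 ligands 5 rose and 2 fell (0 without stretched library 4 or 6 or unstretched library 5, 1 without unstretched library 4 or 6). Over all tested genes 11.0% rose and 10.3% fell. In contrast, 15 of 27 target genes of TGF-β and BMP fell and 5 rose, with a median of -0.31. SNAI2, the Snail-family repressor of epithelial genes, had 49.8, 48.3 and 41.9 CPM against 125, 148 and 144 CPM (log2 fold change -1.58 ± 0.12 (SE), adjusted p = 2.04e-08). SNAI1 had 42.7, 42.2 and 34.1 CPM against 88.5, 92.9 and 100.1 CPM (-1.25). SMAD6, an inhibitor that BMP signalling induces, had 18.9, 18.8 and 15.4 CPM against 42.9, 47.1 and 46.5 CPM (-1.37). SPSB1, an adaptor that marks the TGF-β receptor for degradation, had 6.58, 6.74 and 6.29 CPM against 16.1, 21.4 and 20.5 CPM (-1.57). None of the 4 overlapped. ID1, ID2 and ID3, direct targets of BMP, fell by 0.64, 0.44 and 0.43 on the log2 scale. CTGF was the exception at high level, with 1955, 1976 and 1793 CPM in stretched cells, against 1168, 1191 and 1217 CPM in unstretched cells (0.68), and TGFBI and PMEPA1 rose by 0.26 and 0.32. The list's median was -0.30, -0.33 and -0.31 in the stretched libraries on a scale of log2 CPM relative to the unstretched mean, and -0.05 to 0.04 in the unstretched ones.

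CTGF is also a textbook target of YAP, a factor that enters the nucleus of spread cells. Of 28 targets of YAP and TEAD 7 rose and 6 fell, with a median of -0.02 (4 rose without unstretched library 4). FJX1 rose by 0.78. F3, tissue factor, fell by 0.86 to 24.9, 22.8 and 17.9 CPM, against 38.6, 40.2 and 39.95 CPM without stretch. ANKRD1 and CYR61, often used as readouts of YAP, did not pass (-0.38 and -0.27, adjusted p = 0.742 and 0.194).

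Immediate-early genes were on balance lower at the end of the bout. NR4A1, an orphan nuclear receptor induced within minutes by many stimuli, had 8.73, 11.3 and 9.19 CPM in stretched cells, against 41.5, 50.1 and 46.8 CPM in unstretched cells. It was 4.75-fold lower (log2 fold change -2.25 ± 0.20 (SE), adjusted p = 2.45e-07). JUNB, an AP-1 subunit, had 93.9, 122 and 98.5 CPM against 239.9, 264 and 249 CPM (log2 fold change -1.26 ± 0.10 (SE), adjusted p = 2.29e-08), with stretched library 5 the least reduced. EGR3, a zinc finger factor, had 1.898, 3.46 and 2.45 CPM against 7.99, 9.83 and 8.13 CPM (-1.73). EGR2, of the same family, had 9.08, 14.5 and 9.16 CPM against 23.01, 27.8 and 23.6 CPM (-1.19). Stretched library 5 was again the highest of the stretched wells in both, and still below every unstretched well. BHLHE40, a repressor that also acts in the clock, had 30.2, 30.9 and 27.6 CPM against 77.3, 82.5 and 83.9 CPM (-1.46). EGR1 and FOS fell by 0.55 and 0.56, with adjusted p = 0.0357 and 0.0291, and SRF, the factor that drives many of these genes, fell by 0.47. Some members went the other way. ARC, best known from neurons, had 7.37, 8.28 and 8.14 CPM against 3.08, 3.71 and 4.499 CPM (1.07). NR4A3, a relative of NR4A1, had 5.76, 8.58 and 7.46 CPM against 3.45, 3.74 and 3.57 CPM (1.02), and JUN rose by 0.49 at 163 CPM. Of 26 genes 14 fell and 5 rose, with a median of -0.41. The count that rose was 3 without stretched library 4 or 5 or unstretched library 4, and the count that fell was 11 to 14 with any library left out.

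Krüppel-like factors are zinc finger proteins of which several follow glucocorticoids, growth factors or shear stress. KLF15 was the most reduced, with 0.601, 0.361 and 0.339 CPM against 3.04, 2.99 and 2.49 CPM (log2 fold change -2.72 ± 0.29 (SE), adjusted p = 3.24e-08). KLF9, a glucocorticoid target, had 11.9, 13.4 and 13.96 CPM against 30.1, 32.5 and 29.7 CPM (-1.23). KLF10, which TGF-β induces, had 62.7, 53.1 and 53.7 CPM against 133, 141 and 138 CPM (-1.28), and its groups did not overlap. KLF2 fell by 0.67 and KLF13 rose by 0.96, to 69.5, 81.99 and 74.2 CPM, against 37.7, 38.1 and 40.2 CPM. Of 13 factors 7 fell and 4 rose (2 without unstretched library 4). Of 27 tested targets of glucocorticoids and of FOXO, a factor of quiescent or starved cells, 12 fell, 2 rose (1 without stretched library 5 or 6 or unstretched library 4 or 5) and 13 did not pass, with a median of -0.19. YPEL2 had 6.11, 6.44 and 5.46 CPM against 14.1, 14.6 and 15.5 CPM (-1.30), and PER1, SESN1, SESN3 and FBXO32 fell by 0.58, 0.56, 0.62 and 0.53. FKBP5 and TSC22D3, the usual glucocorticoid readouts, did not pass (0.03 and 0.18).

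Genes in which the wells agreed closely led the downregulated set by p-value. MIDN, midnolin, which takes short-lived nuclear proteins to the proteasome, had 57.3, 56.2 and 51.2 CPM in stretched cells, against 121, 122 and 121 CPM in unstretched cells (log2 fold change -1.14 ± 0.06 (SE), adjusted p = 6.48e-17). NUAK1, a kinase of the AMPK family, had 54.2, 63.2 and 55.9 CPM against 111, 123 and 119 CPM (-1.03). BOC, a Hedgehog co-receptor, had 13.9, 15.9 and 14.7 CPM against 30.2, 35.02 and 32.3 CPM (-1.13). In each the highest stretched well was far below the lowest unstretched well. BAZ2B, a chromatin reader, had 11.99, 10.96 and 13.2 CPM against 23.8, 26.2 and 23.2 CPM (-1.01). RGS2, a brake on G-protein signals, had 9.05, 9.42 and 8.74 CPM against 22.5, 22.1 and 21.2 CPM (-1.28).

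Adhesion, feedback and clock genes moved in both directions. Of 37 integrin and focal adhesion genes 11 rose and 6 fell. ITGB8, an integrin subunit that activates latent TGF-β, had 70.5, 75.4 and 67.97 CPM against 40.2, 37.5 and 35.7 CPM (0.92), and CAV1, the coat protein of caveolae, had 429, 390.0 and 424 CPM against 324, 318 and 318 CPM (0.37). Of 17 inhibitors of MAP kinase signalling 7 fell and 4 rose (2 without stretched or unstretched library 4). DUSP6, a phosphatase that ERK induces and that switches ERK off, had 44.3, 49.9 and 46.04 CPM against 69.8, 70.5 and 69.8 CPM (-0.58). In all 3 genes the groups were apart. Of 20 clock genes 7 fell and 5 rose (3 without stretched library 6 or unstretched library 5). NR1D1, a repressor of the clock, had 4.27, 4.91 and 4.49 CPM against 7.66, 8.36 and 8.398 CPM (-0.84), whereas CRY2, another repressor, had 10.2, 12.7 and 9.37 CPM against 6.02, 7.81 and 6.99 CPM (0.63). Of 21 endocrine and G-protein genes 9 rose and 3 fell. P2RY2, a receptor for ATP, had 19.3, 19.02 and 16.9 CPM against 9.73, 10.5 and 10.4 CPM (0.85), and S1PR3, a receptor for sphingosine phosphate, rose by 0.89. Of 17 targets of NRF2, the oxidant sensor, 5 rose and 1 fell (2 without stretched library 5). SRXN1, sulfiredoxin, had 184, 184 and 175 CPM against 121, 123 and 120.1 CPM (0.57). NDRG1, which hypoxia and stress induce, had 159.8, 166 and 152 CPM against 95.7, 96.9 and 102 CPM (0.70).

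Most of the tested interferon-stimulated genes fell. They encode antiviral proteins and are switched on through the interferon-stimulated response element, which a complex with STAT2 and IRF9 binds. Of 55 listed genes 48 were tested, 35 fell and 1 rose, with a median of -0.82 against 0.01 for all tested genes. RSAD2, viperin, had 5.28, 7.46 and 4.65 CPM in stretched cells, against 24.02, 40.7 and 35.2 CPM in unstretched cells. It was 5.78-fold lower (log2 fold change -2.53 ± 0.44 (SE), adjusted p = 0.000384). CMPK2, its neighbour, had 6.61, 12.3 and 7.49 CPM against 22.7, 37.1 and 32.3 CPM (-1.80). IFIT2, which binds foreign RNA, had 5.38, 8.52 and 6.03 CPM against 17.5, 24.9 and 21.6 CPM (-1.68). IFIT1, its relative, had 14.01, 23.9 and 16.0001 CPM against 38.9, 48.98 and 46.8 CPM (-1.32). In all 4 genes stretched library 5 was the highest stretched well and unstretched library 4 the lowest unstretched well, and the groups did not overlap. DTX3L, a ubiquitin ligase that partners PARP9, had 3.86, 4.36 and 3.58 CPM against 9.47, 12.9 and 12.03 CPM (-1.55).

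Some other members fell by less than RSAD2, CMPK2, IFIT2 and IFIT1, which were among the larger changes of the list. MX1, ISG15 and IRF1 fell by amounts near the list's median of -0.82. MX1, a GTPase that blocks viruses, had 71.7, 102 and 80.4 CPM against 135, 157 and 155 CPM (-0.82, adjusted p = 0.00204). STAT2, part of the complex named above, fell slightly (-0.20) and lost its call when any of 5 libraries was left out. ISG15, a ubiquitin-like modifier, had 23.9, 43.6 and 27.3 CPM against 56.5, 63.95 and 67.6 CPM (-0.99). The RNA sensors DDX58 and IFIH1 fell by 1.13 and 0.81 on the log2 scale, and IRF1 fell to 16.2, 17.3 and 16.8 CPM, against 28.6, 33.2 and 30.8 CPM (-0.88). CXCL10, a chemokine of the interferon response, had 0.285, 0.391 and 0.131 CPM against 1.24, 1.66 and 1.02 CPM but did not pass (-2.29 ± 1.09, adjusted p = 0.159), although the groups did not overlap. IRF7, IFI6 and PML did not pass (-0.37, -0.22 and -0.21). The only rise was in IRF5, with 1.17, 0.903 and 0.6003 CPM against 0.435, 0.391 and 0.2699 CPM (1.26). The list's median was -0.90, -0.53 and -0.72 in stretched libraries 4, 5 and 6, and -0.14, 0.10 and 0.01 in the unstretched ones. With any library left out 24 to 36 members fell, the fewest without stretched library 4. The genes of antigen processing by MHC class I moved less, with 4 of 15 lower (0 without stretched library 6, and 1 without stretched library 4 or unstretched library 5 or 6). CD14, the most abundant tested leukocyte marker, had 22.9, 27.3 and 22.6 CPM against 20.9, 21.4 and 21.9 CPM, and the part of such cells in the result was not tested.

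Promoters of 6 interferon-stimulated genes that fell are shown with the core of the response element in capitals. The core was searched as GAAA, any 2 bases and GAAA, which reads as TTTC, any 2 bases and TTTC on the other strand. Overlapping matches are written as 1 run.
RSAD2 (chr3:128897910-128897959, minus strand): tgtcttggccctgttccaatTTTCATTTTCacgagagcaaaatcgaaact
ZBP1 (chr17:57986187-57986236, minus strand): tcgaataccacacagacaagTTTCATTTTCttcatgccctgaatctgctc
DTX3L (chr13:137961390-137961445, minus strand): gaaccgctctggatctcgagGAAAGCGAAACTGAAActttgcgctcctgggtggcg
ISG15 (chr6:63363047-63363122, plus strand): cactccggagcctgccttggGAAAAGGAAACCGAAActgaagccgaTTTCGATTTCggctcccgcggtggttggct
IFIH1 (chr15:68985271-68985326, minus strand): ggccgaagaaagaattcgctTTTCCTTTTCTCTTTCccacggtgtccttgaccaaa
USP18 (chr5:70183158-70183207, plus strand): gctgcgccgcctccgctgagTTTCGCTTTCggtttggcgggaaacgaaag
ISG15 has 3 matches over both strands, of which 2 overlap, and DTX3L and IFIH1 have 2 overlapping matches each. In the same window of 300 bases, 13 of 34 interferon-stimulated genes that fell had a match (38.2%). Genes of this list are known for the element, and members that did not fall were not counted. The share therefore does not tie the motif to the fall. The motif was in 8 of 57 downregulated promoters (14.04%), in 0 of 105 upregulated promoters and in 346 of all 11685 (2.96%). The 8 include list members, among them RSAD2, ZBP1 and DTX3L. Its letters can overlap those of the NFAT core GGAAAA, which 21.9% of upregulated, 21.1% of downregulated and 22.3% of all promoters held.

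Several of these genes are neighbours in the genome. RSAD2 and CMPK2 stand head to head on chromosome 3 with 5.59 kb between them, IFIT2 and IFIT1 on chromosome 14 are 33.1 kb apart, and PARP14 (-1.48) and DTX3L on chromosome 13 are 84.9 kb apart. Among the upregulated genes HIVEP3, EDN2 and FOXO6 lie within 281 kb of chromosome 6, at 5.9003, 0.3704 and 0.519 CPM with stretch and 2.72, 0.0325 and 0.148 CPM without. HIVEP3 alone exceeded 1 CPM, and FOXO6 lost its call without unstretched library 4.

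Transcription factors of cartilage and limb moved in both directions. SOX5, SOX6 and SOX9 act as a trio that turns on the genes of cartilage matrix. SOX6 had 4.18, 5.42 and 5.22 CPM in stretched cells, against 12.9, 14.5 and 12.2 CPM in unstretched cells (log2 fold change -1.41 ± 0.10 (SE), adjusted p = 5.67e-13). SOX5 had 10.98, 11.3 and 10.9 CPM against 20.5, 22.9 and 21.3 CPM (-0.96). SOX9, which the other two assist, had 11.2, 14.9 and 14.6 CPM against 19.6, 19.3 and 21.4 CPM (-0.57). No well overlapped in any of the trio. EBF1, a factor of adipocyte and B cell lineages, had 24.2, 22.4 and 24.5 CPM against 50.04, 51.8 and 49.7 CPM (-1.09). In contrast OSR2, a zinc finger factor of limb mesenchyme and joints, had 10.03, 11.7 and 10.3 CPM against 4.35, 3.84 and 4.77 CPM (1.30). OSR1, its close relative, had 25.1, 21.5 and 22.5 CPM against 13.9, 12.6 and 12.8 CPM (0.81). TWIST1 had 170.4 CPM with stretch and 104 CPM without (0.71), and SCX, the tendon factor, rose by 0.24, a call lost without stretched or unstretched library 4. Of 42 factors 14 rose and 9 fell. Of 12 chondrocyte-like markers tested 6 fell (the SOX trio, COL9A3, HAPLN1 and COL11A1), with a summed level of 965 to 1108 CPM in stretched cells and 1148 to 1240 CPM in unstretched cells. The 21 tested fibroblast-like markers summed to 107017 to 120267 CPM with stretch and 110123 to 117113 CPM without, and overlapped.

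Some genes of the amino acid shortage response, which ATF4 drives, rose and others fell. CHAC1, which degrades glutathione, had 18.7, 20.8 and 16.9 CPM in stretched cells, against 6.12, 7.68 and 6.75 CPM in unstretched cells (log2 fold change 1.45 ± 0.10 (SE), adjusted p = 5.89e-12). TRIB3, a pseudokinase that restrains ATF4, had 7.12, 8.699 and 7.99 CPM against 4.82, 3.65 and 4.74 CPM (0.85). SLC7A1, an arginine transporter, had 150.4, 162 and 150.0 CPM against 101, 99.6 and 102 CPM (0.61), and ATF4 rose by 0.45. CEBPB, a partner of ATF4, had 105, 124 and 108 CPM against 209.9, 225 and 215 CPM (-0.94), and ATF3 fell by 0.57. Of 35 genes 9 rose and 5 fell, with a median of 0.09, and the tRNA synthetases of the list (AARS1, CARS, GARS and WARS) did not pass. Of 22 genes for chaperones and stress of the endoplasmic reticulum 3 fell, by at most 0.28 on the log2 scale (HERPUD1), beside 10.3% of all tested genes.

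CHAC1 carries the ATF4 composite site, TGATGNAA, in its promoter window (chr1:130363470-130363517, minus strand). It is shown because it is written here on the opposite strand, as TTGCATCA in capitals.
CHAC1: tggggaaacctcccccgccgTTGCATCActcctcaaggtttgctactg
The letters were found in 3.81% of upregulated, 1.75% of downregulated and 2.04% of all promoters.

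Of 42 genes for ribosome biogenesis and MYC 20 rose and 1 fell, with a median of 0.13 (13 rose without stretched library 4). POLR1C, a subunit of the RNA polymerases that make ribosomal and transfer RNA, had 47.95, 51.1 and 45.8 CPM against 38.1, 36.7 and 35.4 CPM (0.40). ODC1, the first enzyme of polyamine synthesis and a MYC target, had 148, 144 and 137 CPM against 113, 111 and 116 CPM (0.33). Cell cycle genes were near level, with 3 of 36 higher and 2 lower (1 lower without stretched or unstretched library 5). This count depended on single libraries, with 12 higher without stretched library 5 and 0 higher (7 at an unadjusted p under 0.05 with all libraries) without stretched library 4 or unstretched library 5 by edgeR's test (1 without stretched or unstretched library 6, and 4 by DESeq2 with all libraries). The list's median in stretched library 5 was -0.07, against 0.15 and 0.12 in stretched libraries 4 and 6. Of 44 subunits of oxidative phosphorylation 0 passed edgeR's quasi-likelihood test, while 1 was higher and 3 were lower at an unadjusted p under 0.05 and 1 fell by DESeq2 and by limma-voom. Of 28 genes for cholesterol and lipid synthesis 10 fell and 4 rose. INSIG1, which restrains that pathway, fell by 0.36, and HMGCS1, an early enzyme of it, by 0.30.

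The genes chosen by the study for RT-qPCR included inflammatory ones, and among them RRAD and NFATC2 rose and IRF1 and STAT2 fell, as given above. NOS2, the inducible nitric oxide synthase, was near the floor with 0.0949, 0.0903 and 0.0261 CPM against 0.1003, 0 and 0.08998 CPM and overlapped. Of genes outside that list, PTGS2, cyclooxygenase-2, had 285, 289 and 264 CPM against 244, 239 and 231 CPM (0.23, adjusted p = 0.0359), a small rise that was lost when any of 5 libraries was left out.

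The same bout was given to inner zone cells, which come from the avascular inner edge that resembles cartilage, and the 2 comparisons share no library. In inner zone cells 120 genes were called higher (0.879% of tested genes) and 52 lower (0.381%). Of the 118 genes called higher in outer zone cells 63 were called higher in inner zone cells (53.4%, and 52.5% of the inner 120). Of the 67 called lower 26 were called lower (38.8%, and 50% of the inner 52). None was called in the opposite direction, and 111 of 118 and 65 of 67 had the same fitted sign. RRAD, FAM83G and NFATC2 had inner log2 fold changes of 1.94, 2.38 and 1.48, and BCL3, MIDN and KLF15 had -1.96, -1.22 and -2.36. At any fold change 1454 of the 13653 tested genes rose in inner zone cells and 1269 fell. Of the interferon-stimulated genes 11 of 48 fell there at any fold change, with a median of -0.47. For this list 0 members passed edgeR's test of the difference between zones (2 had a negative difference at an unadjusted p under 0.05).

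The test of that difference, outer minus inner, called 50 genes (0.366%). Among the 185 called genes it called 3, and in each the zones moved the same way. CHAC1 rose less in outer zone cells, with 18.8 ± 1.97 CPM in stretched and 6.85 ± 0.785 CPM in unstretched outer zone cells (SD, n = 3), than in the inner zone with 41.8 ± 0.6503 CPM in stretched and 8.54 ± 0.991 CPM in unstretched inner zone cells (difference -0.84 ± 0.14, adjusted p = 0.00217). KLF9 fell more in outer zone cells (difference -0.56 ± 0.11, adjusted p = 0.00661). Other members of the ATF4 list differed in the same sense as CHAC1. TRIB3 was 0.85 in the outer and 1.94 in the inner zone (difference -1.09 ± 0.17), and ATF3 fell in the outer zone and did not pass in the inner zone (-0.57 and 0.26, difference -0.83 ± 0.15). CYP24A1, which inactivates vitamin D, rose in both, by 0.96 and 2.91 (difference -1.95 ± 0.41).

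Of the 50 genes 41 had a negative and 9 a positive difference. Of the 9, 7 are genes of cell division or nucleotide supply (TK1, KIF4A, CCNF, AURKB, CCNB3, CDCA2 and PSRC1), a grouping made after their values were seen. PSRC1, a spindle protein, had 0.31 in outer and -0.29 in inner zone cells, and CCNB3, a B-type cyclin, had 0.26 and -0.27. On the cell cycle list 14 of 36 members fell and 3 rose in inner zone cells, beside 1269 and 1454 of all 13653 tested genes. On that list 3 members differed between zones. HES1, a Notch target, fell in both zones, by 0.67 in the outer and 1.67 in the inner (difference 0.99 ± 0.18). These counts moved with single wells, since 141 genes differed between zones without stretched library 5, and 19 without unstretched library 5.

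Stretch was also applied to outer zone cells that received IL-1 at the same time, with other wells as their own unstretched control. In IL-1, 96 genes were called higher with stretch (0.703%) and 242 lower (1.77%). Of the 118 genes called higher by stretch alone 24 were called higher in IL-1 too (20.3%, and 25% of the 96) and 3 were called lower (2.54%, and 1.24% of the 242). Of the 67 called lower 27 were called lower (40.3%, and 11.2% of the 242). The median log2 fold change in IL-1 was 0.44 over the 118 genes and -0.85 over the 67. The test of the difference, stretch alone minus stretch in IL-1, called 1796 genes (13.2%). It called 45 of the 118, of which 43 had a positive difference, and 29 of the 67, of which 23 had a negative one. In most of these genes the response in IL-1 was smaller or had the opposite sign. The genes were selected for a large change without IL-1, and the same libraries enter the difference, which leans it this way. Over all tested genes 1059 called differences were positive and 737 negative.

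Several of the signalling genes rose in IL-1 as well. RRAD rose by 2.19 alone and 2.46 in IL-1, KCNK9 by 1.62 and 1.78, and NDP by 1.61 and 1.57, none of them with a called difference (adjusted p = 0.485, 0.813 and 0.956). TGFB1 rose by 0.90 alone and 0.94 in IL-1. NFATC2 rose more in IL-1 (1.65, difference -0.42 ± 0.08, adjusted p = 0.000378). Other secreted ligands differed. CXCL8, AMCF-II, AREG and PTHLH had 0.04, -0.11, -0.05 and 0.02 in IL-1 and did not pass there, with differences of 1.63, 1.27, 1.32 and 1.13 that were all called. The starting levels can be unlike, since unstretched cells had 1003 CPM of CXCL8 in IL-1 and 3.28 CPM without. ZMIZ1 and ADAMTS1 rose less in IL-1, by 0.33 and 0.46.

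Among the genes that fell, BCL3 fell by 2.06 on the log2 scale alone and by 0.36 in IL-1 (difference -1.70 ± 0.11, adjusted p = 1.64e-12). SOX6 fell alone and rose in IL-1, by 0.71 (difference -2.12 ± 0.15, adjusted p = 7.13e-12). EBF1 and KLF9 fell alone and did not pass in IL-1 (0.10 and -0.06), and both differences were called. SNAI2, BHLHE40 and NR4A1 fell in both, by 1.53, 1.39 and 1.86 in IL-1, with no called difference. The interferon-stimulated genes fell more in IL-1. There 45 of 48 fell at any fold change with a median of -1.80, beside 2059 of all 13653 tested genes. The difference was called and positive in 28 members. RSAD2 had -3.94 ± 0.34 in IL-1 and -2.53 alone, a difference that was not called (adjusted p = 0.126).

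**Figure D4:**
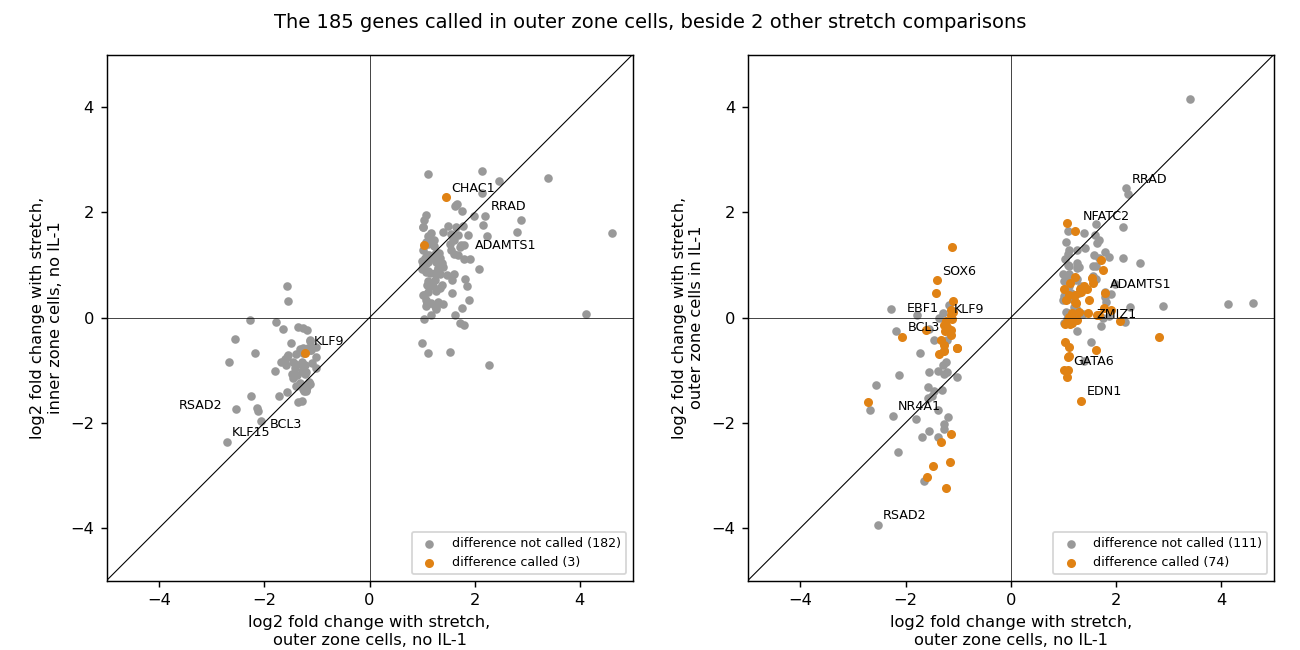
Log2 fold change with stretch of the 185 genes called in outer zone cells without IL-1 (horizontal axes), beside inner zone cells without IL-1 (left) and outer zone cells in IL-1 (right); orange points are genes whose difference between the 2 comparisons was called and the diagonal marks equal responses. At the left 3 of 185 genes are orange and most points lie on the same side of 0 in both zones. At the right 74 are orange, most of them below the diagonal among the upregulated and above it among the downregulated genes.

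The response to IL-1 itself, taken from unstretched inner zone cells so that no library is shared, called 1149 genes higher (8.42%) and 999 lower (7.32%). Of the 118 genes called higher by stretch 42 were called higher by IL-1 (35.6%, and 3.66% of the 1149) and 13 lower (11.0%, and 1.30% of the 999). Of the 67 called lower by stretch 22 were called higher by IL-1 (32.8%, and 1.91% of the 1149) and 18 lower (26.9%, and 1.80% of the 999). CXCL2 and AMCF-II had log2 fold changes of 6.80 and 5.49 with IL-1, and the interferon-stimulated gene RSAD2 had 6.44.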

How the data were processed

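The RNA of 24 wells of pig meniscus cells was sequenced (mRNA, stranded kit), and the 6 outer zone libraries without IL-1 are compared here. The deposited values are read counts per gene. The authors trimmed reads with Trim Galore and cutadapt, mapped them with STAR to Sscrofa11.1, kept uniquely mapped reads and counted them with HTSeq, without normalization. The strand setting of the counting is not given in the sources used here, so overlapping genes may share reads. A gene was kept if 1 or more libraries held 10 of its reads (13653 of 25880). Counts were scaled by TMM and fitted with edgeR 4.0.16 (quasi-likelihood test, R 4.3.3) over 24 libraries and 8 group means, which left 16 residual degrees of freedom. P-values were adjusted by Benjamini-Hochberg over all tested genes, and standard errors were derived from the F statistic. A gene passed at an adjusted p under 0.05 and was called where its fold change also exceeded 2. Differences were called by the adjusted p alone. Where a gene is said to lose or gain its call, the adjusted p alone is meant. The interaction terms gave the differences between zones and with IL-1.

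Levels are CPM from these counts. The genes named were the 15 largest and the 10 smallest by p in each direction at 1 CPM or more without overlap, up to 5 members of each list, the RT-qPCR genes, the 6 largest differences in each direction and neighbours within 500 kb. Other list members, and the cell division genes and CYP24A1 among the zone differences, were named after their values were seen. Results for some genes are not reported here. The members and the 46 lists were chosen with earlier results of these data known. Promoter windows came from the RefSeq annotation and genome of the same build and were had for 11685 tested genes. Alternatives were DESeq2 1.42.0, limma-voom (limma 3.58.1), other size factors, filters and sets of libraries, the replicate number as a block, and leaving out each library. The fit was tested on simulated counts. With 3 wells a group and 27633199 to 35284474 reads a library, a gene under 1 CPM rests on few reads.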

Additional observations from a re-analysis of the deposited data

Results flagged for a closer look

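The tests of differences between responses called 50 genes between zones and 1796 genes with and without IL-1. A difference is the log2 fold change of stretch in outer zone cells without IL-1, minus that in inner zone cells or in outer zone cells with IL-1, and each was called by edgeR's quasi-likelihood test of the interaction with Benjamini-Hochberg adjustment. Between zones 3 genes called in outer zone cells were also called for the difference. CHAC1 had a difference of -0.84 and KLF9 of -0.56.

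With IL-1 the positive differences were 3.19 for USP43, 2.91 for EDN1 (endothelin-1), 2.22 for CAMKV, 2.21 for PROX1, 2.14 for FGF16 and 2.09 for GATA6. The calls of CAMKV and FGF16 for the difference were lost without any of 4 libraries each, and that of USP43 without stretched library 6 or unstretched library 5. The stretched and unstretched wells of PROX1 overlapped. Without IL-1 these genes rest on few reads, stretched against unstretched. USP43 had 7, 2 and 9 against 1, 0 and 1 reads, and FGF16 had 12, 13 and 4 against 2, 3 and 1. CAMKV had 15, 16 and 17 against 6, 7 and 1 reads, and EDN1 had 20, 11 and 11 against 5, 5 and 5. EDN1 rose by 1.33 alone and fell by 1.58 in IL-1, so both changes enter its difference. The negative differences were -2.47 for C1orf116, -2.12 for SOX6, -1.88 for EFNA1 (ephrin-A1), -1.70 for BCL3, -1.41 for BMF (a pro-apoptotic BCL2 relative) and -1.38 for FAM46C. C1orf116 had 8, 7 and 9 reads with stretch alone, against 15, 19 and 14 without stretch.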

How the results depend on the processing

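The counts of 118 upregulated and 67 downregulated genes kept within 1.5 times under DESeq2 (93 and 62), limma-voom (114 and 72), the 6 libraries alone (108 and 69), no filter on low counts (124 and 68) and a filter of 1 CPM (83 and 54). A test against a fold change of 2, which asks more than a fold over 2 and an adjusted p, called 14 genes higher and 10 lower. Leaving out each library gave 95 to 111 higher, 57 to 78 lower and 2176 to 2596 at any fold, and 142 to 156 of the 185 genes were called in both. The count of 50 genes that differed between zones was 121 with only the 12 libraries without IL-1, 116 by DESeq2, 77 with no filter, and 19 to 141 with a library left out. The count of 1796 for the difference with IL-1 was 1526 to 1728 with a library left out. No named gene or named difference that had passed the test changed its sign. Over all alternatives the values of named genes held 3096 times, were no longer called 163 times, became called 3 times and changed sign 3 times, each in NOS2, which had not passed (-0.46 to 0.51 with a library left out). Among the named differences 373 held, 15 were lost, 2 were gained and 2 changed sign, both in the zone difference of GATA6 (-0.29 to 0.06), which had not passed either. Of the list counts 117 moved by over 1.5 times and 1263 did not, and of the list medians 19 moved by 0.1 or more on the log2 scale and 671 by less. The median of the NF-κB cytokines and chemokines was -0.05 to 0.15 with a library left out. EDN1 lost its call without stretched library 4 or unstretched library 6, FGF16 without stretched library 4 or 5 or unstretched library 6, and WNT7B without unstretched library 6. CXCL10 passed by DESeq2 and with the 12 or the 6 libraries without IL-1. The replicate numbers did not pair the wells, with correlations of deviations of 0.08, 0.22 and -0.15 between same-numbered wells over 11426 genes. With the number as a replicate block 117 genes were higher and 66 lower, 2828 changed at any fold, and 42 and 1749 differed between zones and with IL-1. Depth limits the 56 upregulated and 16 downregulated genes under 1 CPM.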
